A study of Saccharomyces cerevisiae with 8 samples.

Results

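Transcript isoform sequencing (TIF-seq) reads both ends of single capped and polyadenylated RNA molecules. Molecules of early meiotic yeast cells (the T1 pool) were set against molecules of the same strain before meiosis was induced (the pm pool). The comparison took 4 libraries of 8, the 2 titled early meiotic and the 2 titled premeiotic. The other 4 libraries, of later meiosis (T2) and of return to growth (T3), entered the shared model only, which estimates the spread between replicates. The T1 pool combined equal amounts of RNA from samples at 3 to 6 h in sporulation medium (SPO). The pm pool did the same for 0 to 2 h.

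All groups carried the genotype of strain FW2795, a diploid of the SK1 background, which is titled wild type although it is engineered. Both haplotypes, MATa and MATα, held trp1::hisG, his3::hisG, leu2::hisG, ura3, lys2 and ho::LYS2. IME1 stood behind the copper-inducible CUP1 promoter (irt1::pCUP-3HA-IME1::HphMX). NDT80 stood behind the GAL promoter (ndt80::pGAL-NDT80::TRP1), driven by a Gal4 fusion that needs β-estradiol (ura3::pGPD1-GAL4(848).ER::URA3). The treatment label reads no treatment for all samples, yet 50 μM copper sulphate was given at 2 h in SPO, after the pm samples and before the T1 samples, so time in SPO and copper cannot be told apart between the pools. The T1 pool ended at 6 h in SPO. At that time 1 μM β-estradiol was added for the T2 pool, which covered 7 to 9 h. Cells of the T3 pool were instead moved to rich medium (YPD) at 6 h, with no β-estradiol listed. Each library mixes several time points, so a level is an average over the hours of its pool, and fewer cells with a transcript cannot be told apart from less of it per cell.

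In budding yeast, starvation and the master regulator Ime1 switch on early meiotic genes, and cells then replicate their DNA and recombine. Ndt80 is needed for the later divisions and was not induced in either pool. A gene may be transcribed from more than 1 start, and in yeast a transcript from a distal, upstream start can run through the gene promoter and go along with repression of the proximal start. Such long transcripts, called LUTIs, are one reason why both ends of a molecule are informative. TIF-seq ties each start to its own 3′ end, which separate maps of starts and ends do not.

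Each deposited line was counted as 1 molecule. The 5′ and 3′ ends on the 16 chromosomes were counted in bins of 100 nt on each strand (start bins and end bins). The distance between 2 starts of a transcript runs from bin start to bin start. The distance between their most frequent 5′ positions can differ from it by up to 100 nt. Positions refer to the authors' SK1 assembly, for which no gene annotation was at hand, so each locus is given by its bin and without a gene name. The level of IME1 and of meiotic marker genes, by which the pool labels could be checked, was not analysed here for the same reason. The T1 libraries held 1820826 and 962355 yeast molecules, and the pm libraries held 606325 and 1310553. A level, in CPM, is the number of molecules per 1000000 of a library size that was scaled by the median of ratios. This scaling placed the median log2 fold change of all start bins at 0.02, whereas scaling by library totals placed it at 0.42 and scaling by spike-in molecules at -0.28, and directions are relative to that. Of 99030 start bins with a molecule, 10547 reached a mean of 5 CPM in the 4 libraries and were tested, and so did 9182 of 78657 end bins. For this filter CPM was taken by library total (library-total CPM), without the scaling. A bin at 0 in one pool could only be tested through the other.

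Start bins changed in both directions in nearly equal numbers. In T1 against pm, limma voom called 1337 start bins higher (12.7% of those tested) and 1377 lower (13.1%), with the adjusted p below 0.05 and at least a 2-fold difference. Higher and lower start bins thus made up 25.7% of all tested. The higher start bins lay in 911 separate stretches of the genome and the lower ones in 974. By library-total CPM, both T1 libraries exceeded both pm libraries in all 1337 higher start bins, and in 4154 of all tested (39.4%). By the same measure both fell short of both pm libraries in 1367 of the 1377 lower ones, and in 2685 of all tested (25.5%). Library totals move the fold changes of all bins towards T1, which enters the last 2 shares. The share of higher among called start bins was 49.3%, against 64.2% with scaling by library totals and 39.1% with spike-in scaling. Without T1 replicate 1 the counts were 635 higher and 769 lower, without T1 replicate 2 857 and 756, and without pm replicate 2 682 and 674, while limma trend in place of voom called 813 lower.

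**Figure D1:**
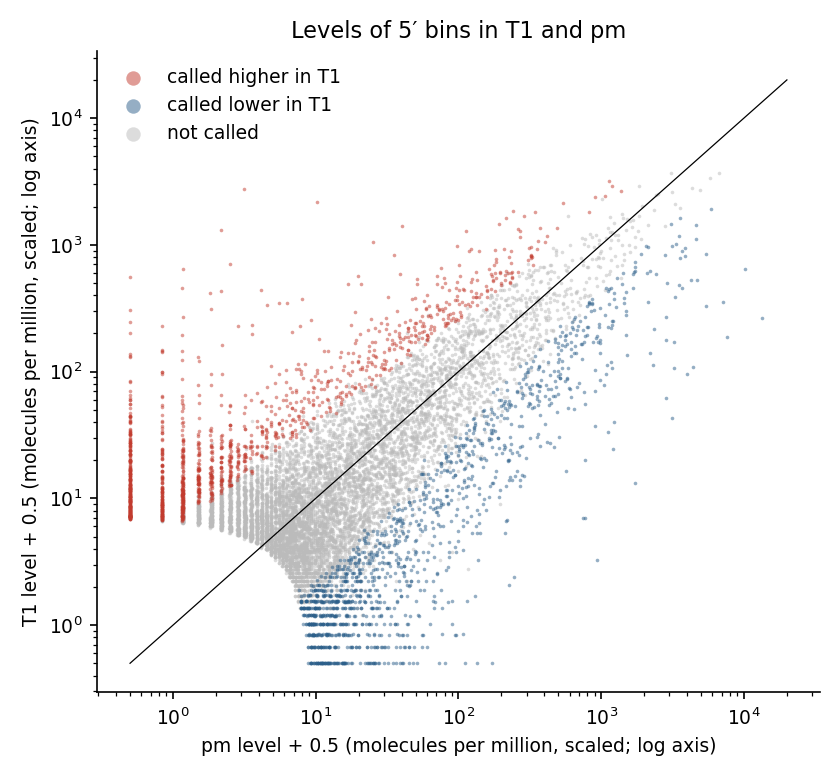
Mean level of each tested start bin in the T1 libraries (y axis) against the pm libraries (x axis), in CPM plus 0.5 on log axes, coloured by its call. The 1337 higher and 1377 lower bins spread away from the diagonal, and 288 of the higher ones stand at the left edge, with no molecule in either pm library.

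The changes were large where they were called. The median log2 fold change of higher start bins was 3.32 (interquartile range 2.69 to 4.14), and 3.08 with the 288 bins that had no pm molecule set to a lower bound. That of lower start bins was -3.35, also with the 95 bins without a T1 molecule at their bound. At least 8-fold differences were found for 863 higher and 862 lower bins. The lower start bins had made up much of the pm RNA: they held 10.4% and 10.1% of all molecules in T1, against 40.0% and 45.7% in pm. The higher start bins held 24.3% and 26.7% in T1, against 5.34% and 3.24% in pm. A large part of the pm molecules thus came from starts called lower in T1. The same counts chose these bins, so part of the contrast in shares is built in.

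The start with the largest log2 fold change lay at chr8:121101-121200 on the + strand. It had 1372 and 926 molecules in the T1 libraries and none in either pm library. It was at least 392-fold higher in T1, taking 3 molecules over the pm pool as the floor (adjusted p = 8.9e-07, limma). Of its molecules, 42.0% started at position 121124, and their median length was 950.5 nt. Starts without a single pm molecule were also found at chr7:438201-438300 (+ strand), with 619 and 572 T1 molecules, at chr6:196801-196900 (+ strand), with 559 and 420, and at chr2:56101-56200 (+ strand), with 614 and 269. They were at least 203-fold, 167-fold and 151-fold higher in T1.

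Other starts in this range were low but present before induction. The start at chr5:541701-541800 (+ strand) had levels of 2313 and 3179 in T1, against 3.96 and 1.36 in pm, or 6762 and 4515 molecules against 3 and 2. It combined one of the largest fold changes, a log2 fold change of 9.94 ± 0.74 (SE, limma, adjusted p = 5.1e-07), with the largest gain in level among all higher starts. The start at chr16:319501-319600 (- strand) had 3062 and 2224 molecules in T1 and 2 and 1 in pm, a ratio of levels of 902 (95% counting interval 308 to 4374). At chr4:491201-491300 (+ strand) there were 1611 and 1033 molecules in T1 and 0 and 2 in pm, a ratio of 677 (187 to 5590). The adjoining bin, chr4:491301-491400, held more of the same cluster of starts, with 5543 and 3502 molecules in T1 and 8 and 13 in pm (log2 fold change 7.71 ± 0.63). These starts were therefore nearly silent in pm and among the abundant ones in T1.

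The start with 836 to 957 T1 molecules at chr7:162701-162800 (- strand) had 1 and 0 in pm, so that its ratio of 918 had a wide counting interval (164 to 36264). Of the starts with the largest gains in level, the others were active in pm already. At chr8:164301-164400 (+ strand) the levels were 3230 and 3108 in T1, against 870 and 1399 in pm (log2 fold change 1.47 ± 0.35, adjusted p = 0.0062, limma). At chr8:486101-486200 (+ strand) they were 1878 and 2434 in T1, against 605 and 480 in pm. The gains at chr13:794601-794700 (+ strand) and chr4:568901-569000 (- strand) were similar in size, with log2 fold changes of 1.31 ± 0.29 and 1.40 ± 0.30. The libraries of the pools did not overlap in these 4 starts, which the rule for naming starts required. With spike-in scaling the calls at chr8:164301-164400, chr13:794601-794700 and chr4:568901-569000 were lost, and without pm replicate 2 that at chr13:794601-794700.

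**Figure D2:**
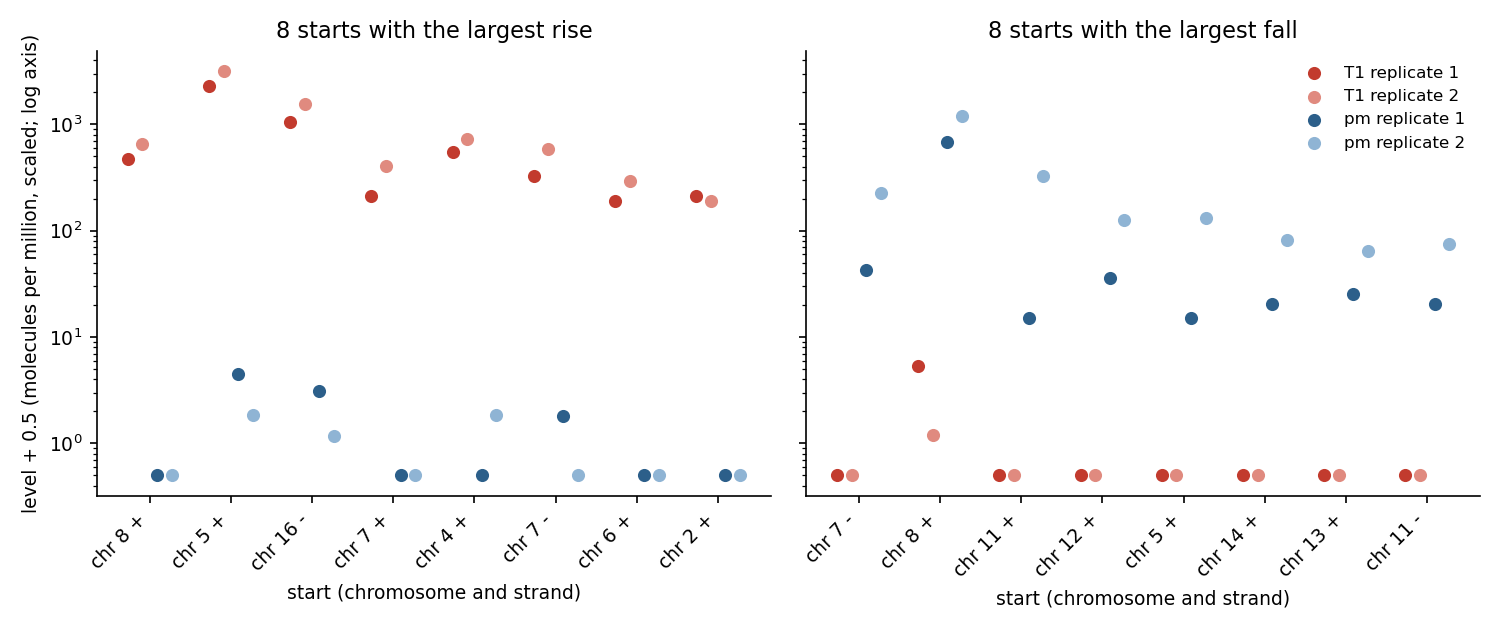
Level of 16 start bins, in CPM plus 0.5 on a log axis, in each T1 library and each pm library: the 8 higher and the 8 lower starts with the largest log2 fold change. The rule for naming starts required that the libraries of the pools did not overlap, and empty libraries are drawn at the lowest value.

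Among the lower starts, the most abundant start of the pm pool lost nearly all of its molecules. The start at chr7:873701-873800 (- strand) had levels of 299 and 234 in T1, against 13624 and 12947 in pm. Its log2 fold change was -5.62 ± 0.33 (SE, limma, adjusted p = 4.7e-08). The start at chr11:339901-340000 (- strand) had levels of 207 and 170 in T1, against 7041 and 8289 in pm (log2 fold change -5.33 ± 0.35). The second most abundant pm start, at chr13:850201-850300 (- strand), had 701 and 578 in T1, against 9725 and 10632 in pm (-3.97 ± 0.30). The loss was thus not restricted to weak starts.

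A further 3 starts of high pm level fell. The start at chr2:355601-355700 (- strand) had levels of 502 and 206 in T1, against 4775 and 9571 in pm. The start at chr12:733601-733700 (- strand) had 231 and 428 in T1, against 3758 and 7037 in pm. The start at chr16:643501-643600 (+ strand) had 716 and 971 in T1, against 5417 and 5428 in pm, the smallest change of these (log2 fold change -2.74 ± 0.29). The higher T1 library stayed below the lower pm library in each of them, as the naming rule required.

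The largest fall in log2 fold change was that of chr7:873201-873300 (- strand), with no molecule in T1 and 32 and 334 in pm, at least 238-fold lower in T1. It lies 500 nt downstream of the most abundant pm start and shares its most frequent 3′ end, position 872576. Starts inside a transcript and copies of it that lost their 5′ end cannot be told apart here. The start at chr11:339201-339300 stood in the same way 700 nt downstream of chr11:339901-340000. It had no T1 molecule and 15 and 110 pm molecules. The start at chr8:437901-438000 (+ strand) was sharp, with 92.3% of its molecules at position 437908. It had 14 and 1 molecules in T1, against 512 and 1747 in pm (log2 fold change -8.58 ± 0.79, adjusted p = 3.8e-06, limma).

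Starts at chr11:328301-328400, chr12:455601-455700, chr5:407501-407600, chr14:681001-681100 and chr13:751101-751200 (all + strand) had no T1 molecule either. The pm replicates differed widely at some of them: 11 and 479 molecules at the first, a bound of at least 319-fold lower in T1, and 11 and 191 at chr5:407501-407600, at least 132-fold lower. The other 3 were at least 137-fold, 87.3-fold and 72.9-fold lower in T1. These 5 starts gave short molecules, with median lengths of 307 to 645 nt. The start at chr13:751101-751200 lies 200 nt downstream of a more abundant one, chr13:750901-751000, which was also called lower. The latter had 439 and 5597 molecules in pm. Here too, copies that lost their 5′ end cannot be told apart from starts inside the transcript.

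The most abundant starts of T1 itself were not new. The start at chr12:859501-859600 (+ strand) had levels of 3812 and 3574 in T1, against 2575 and 3609 in pm (log2 fold change 0.24 ± 0.28, adjusted p = 0.56, limma). The start at chr14:510901-511000 (- strand) had 3709 and 3644 in T1, against 4529 and 8953 in pm. Its log2 fold change of -0.82 ± 0.30 stayed under 2-fold and was not called, but it was called without pm replicate 1 (-1.36). T1 thus differed from pm more by the loss of the most abundant pm starts than by the gain of equally abundant ones: the top start of pm stood at 13624 and 12947, above any start in T1.

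The levels of the same bins in the later pools are given as a description, since the T1 and pm libraries chose them. The higher start bins had a median level of 22.4 in T1, against 1.34 in pm, and 14.3 in T2 and 3.07 in T3. Of the 1337 bins, 1029 stood above both pm libraries in both T2 libraries and 388 in both T3 libraries. The lower start bins had a median level of 2.09 in T1, against 30.2 in pm, and 5.90 in T2 and 9.76 in T3. Of the 1377 bins, 1064 stood below both pm libraries in T2 and 835 in T3. Of the 7833 bins not called, 1710 stood above both pm libraries in T2 and 1659 in T3. Among the same bins, 1895 stood below in T2 and 3322 in T3, so low T3 levels were common outside the called bins too.

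End bins changed in much the same numbers as start bins. In T1 against pm, limma voom called 1028 end bins higher (11.2% of those tested) and 1236 lower (13.5%), in all 24.7%. The share of higher among called end bins was 45.4%, against 64.2% with scaling by library totals and 36.7% with spike-in scaling. By library-total CPM, both T1 libraries exceeded both pm libraries in all 1028 higher ones, against 41.3% of all tested. They fell short of them in 1231 of the 1236 lower ones, against 25.9%. The median log2 fold change was 3.07 for higher end bins (2.89 with bins at 0 at their bound) and -3.15 for lower ones. Without T1 replicate 1 there were 424 higher and 491 lower end bins, without T1 replicate 2 480 and 553, and without pm replicate 2 357 and 557, and limma trend called 796 lower. A median level of 41.5 in T1, against 3.13 in pm, marked the higher end bins, and a median of 4.12 in T1, against 45.7 in pm, the lower ones.

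Among end bins that do not belong to the starts named so far, chr4:1318901-1319000 (+ strand) had 354 and 328 molecules in T1 and none in pm, at least 109-fold higher in T1. The end at chr8:388501-388600 (- strand) had 689 and 417 molecules in T1 and 1 in each pm library, a ratio of 265 (73.3 to 2194). The ends at chr7:364201-364300 (+ strand) and chr4:1188101-1188200 (- strand) had 2 pm molecules each, and ratios of 253 (69.8 to 2091) and 245 (67.6 to 2023). They closed molecules of gene length, with medians of 758 to 1264 nt over the 4 ends.

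The lowered ends were of more than 1 kind. The end at chr7:991901-992000 (+ strand) had 7 and 0 molecules in T1, against 80 and 658 in pm (log2 fold change -7.97). The end at chr3:153001-153100 (+ strand) had none in T1, against 22 and 121 in pm, at least 99.3-fold lower in T1. At chr9:43401-43500 (- strand) there were 1 and 0 in T1, against 27 and 225 in pm, and at chr15:381501-381600 (+ strand) none in T1, against 51 and 21. These last 2 ends closed molecules of only 160 and 142 nt. Such short molecules, under 200 nt, were rare in T1 (0.873% and 0.400% of a library) and less so in pm (2.11% and 2.34%), and their part in such calls was not tested.

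To tie starts to ends, neighbouring end bins with a gap of at most 100 nt were merged, which gave 5981 3′ regions. The start bins that sent at least 50% of their molecules into a 3′ region formed a unit with it, which stands in for a gene. There were 4224 units. The start bin with the highest mean library-total CPM in pm, at 5 or more, was the main start, which 3638 units had. The higher start bins fell in 707 units and the lower ones in 720.

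The start bins and the end of a unit count largely the same molecules, so their calls are not independent. Of the units with higher start bins only, the most abundant end bin was called higher in 466 and not called in 219. Of those with lower start bins only, it was called lower in 524 and not called in 174. Units with start bins called in both directions were few: their most abundant end was higher in 3, lower in 5 and not called in 14. In those 22 units the level of the shared 3′ end alone did not show the exchange of starts. Of units with no start called, the end was higher in 53, lower in 69 and not called in 2697.

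The called start bins were spread unequally over positions within units. Main starts were called higher in 283 of 3638 (7.78%) and lower in 624 (17.2%). Start bins at least 200 nt upstream of a main start showed the opposite balance, 143 of 789 higher (18.1%) and 60 lower (7.61%). Bins at least 200 nt downstream were higher in 205 of 2165 (9.47%) and lower in 311 (14.4%). In units without a main start, 456 of 1004 bins were higher (45.4%) and none lower. Other bins lay closer than 200 nt to the main start (beside it) or did not send 50% of their molecules to one 3′ region (no unit). Over all tested start bins the shares were 12.7% higher and 13.1% lower. Because the main start was picked by its pm level, part of this order is built into the classes and was given no test.

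**Figure D3:**
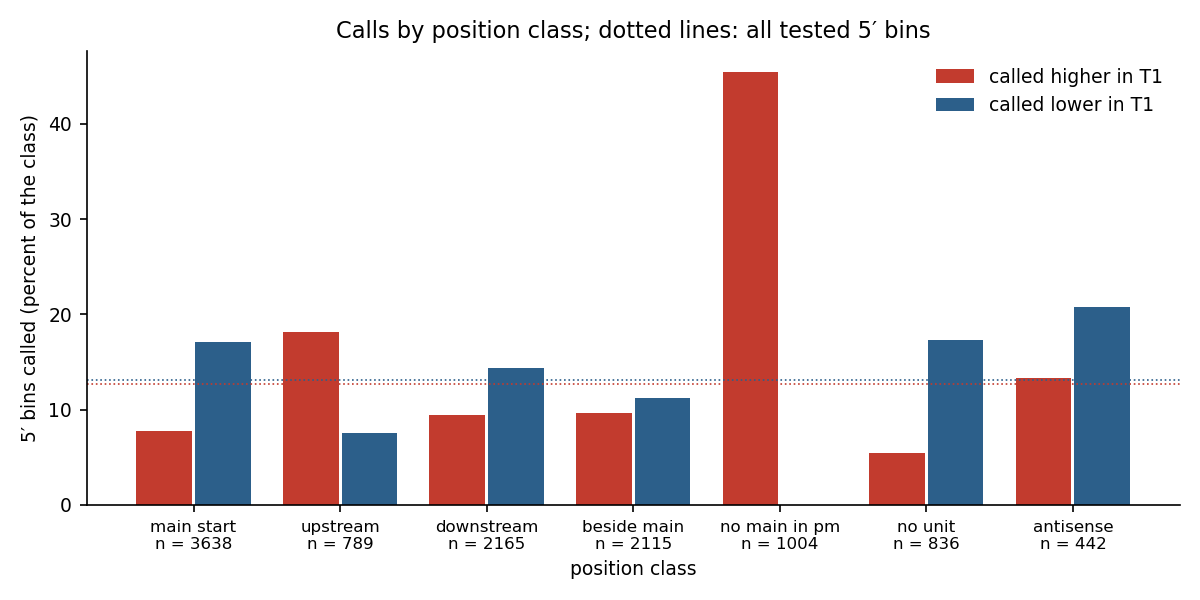
Percent of start bins called higher and lower in T1 against pm, for each position class within units; dotted lines mark the shares over all tested bins, 12.7% and 13.1%. Upstream starts lean to higher (18.1% against 7.61% lower) and main starts to lower (17.2% against 7.78% higher).

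The shares also varied by chromosome. Between 5.41% of tested start bins on chromosome 1 and 18.7% on chromosome 8 were called higher. Lower bins ran between 9.13% on chromosome 6 and 18.1% on chromosome 12. All 16 chromosomes held calls in both directions.

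The raised upstream starts are those at which a longer, 5′-extended molecule would reach the same 3′ region as the pm transcript. They lay in 78 units, at a median distance of 400 nt from the main start. The main start was called higher in 10 of these units, lower in 10 and not called in 58. In 34 units both T1 libraries held more molecules of the upstream than of the main start. Counting only the molecules of the upstream bin and of the main bin, the median share of the upstream bin was 50.8% in T1, against 4.93% in pm. Picking the main start by its pm level keeps the pm share low. When the main start was picked by the mean of pm and T1, a choice made after seeing the data, there were 83 such units, with the main start higher in 37, lower in 5 and not called in 41. Of all main starts picked by pm level, 7.78% were higher and 17.2% lower, so the 10 of 78 called lower are no larger a share than over all. Without T1 replicate 1 there were 41 such units, with the main start higher in 2 and lower in 4, without T1 replicate 2 48 units, with it lower in 4, and without pm replicate 2 45 units, with it higher in 2. Without T2 replicate 1 or 2 the main start was higher in 16.

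In the 10 units with a lowered main start, the median share of the upstream bin in the molecules of both bins was 76.1% in T1, against 2.59% in pm. The upstream molecules had a median length of 1081 nt and the main ones 506 nt. The fall of the main start ranged from a log2 fold change of -4.42 to -1.70. In 9 of the 10 units limma's test of start usage (diffSplice) called the upstream start. That test used the same fit that chose these units for opposite calls, so it is not separate support. In 2 of the 10, however, the molecules of the main start were under 200 nt long.

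The clearest case by its molecules lay at chr15:352101-352200 (+ strand). This upstream start had 392 and 370 molecules in T1, against 1 and 7 in pm (log2 fold change 5.76 ± 1.31, adjusted p = 0.0048, limma). The main start 500 nt downstream, chr15:352601-352700, had 35 and 17 in T1, against 71 and 348 in pm (-3.70 ± 0.78, adjusted p = 0.0029). Of the molecules of these bins, the upstream one therefore held 91.8% and 95.6% in T1, against 1.39% and 1.97% in pm. Other start bins of the unit are not in these shares. The calls of both starts held under every alternative that gave them a value. A smaller difference was seen at chr2:363001-363100 (+ strand), with 133 and 75 molecules in T1, against 5 and 10 in pm (2.76 ± 0.70, adjusted p = 0.0091). Its main start in the bin 200 nt downstream, chr2:363201-363300, had 57 and 33 in T1, against 94 and 108 in pm (-2.13 ± 0.62, adjusted p = 0.019, limma). The most frequent 5′ positions of these starts, 363095 and 363237, lie nearer to each other than that. T1 molecules also started in the bin between them. The call of that main start was lost without T1 replicate 1, T1 replicate 2 or pm replicate 1, and the call of the upstream start without T1 replicate 2 or pm replicate 2.

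At chr13:112501-112600 (- strand) the upstream start had 78 and 72 molecules in T1, against 4 and 7 in pm, and the main start 1 and 2 in T1, against 7 and 22 in pm. The other named units of this kind had short main molecules. At chr13:377601-377700 (+ strand) the upstream start had 184 and 72 molecules in T1, against 4 and 23 in pm, and the main start 1200 nt downstream gave molecules with a median of 58 nt. At chr2:127601-127700 (- strand) the upstream start had 34 and 25 molecules in T1, against 0 and 4 in pm, and the main molecules had a median of 113 nt. The upstream call at chr13:377601-377700 was lost without T1 replicate 1 or pm replicate 1, that at chr2:127601-127700 without T1 replicate 2 or pm replicate 1, and that at chr13:112501-112600 without T1 replicate 2 or either pm replicate. The main call of the + strand chr13 unit was lost without T1 replicate 2, and that of the - strand chr13 unit without T1 replicate 1. Molecules of less than 200 nt start close to their 3′ end, and their part in these falls was not tested.

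In the 10 units where both starts were higher, the same share of the upstream bin had a median of 34.1% in T1, against 6.46% in pm. That it was smaller in T1 than with a lowered main start is built in. The call of the main start defined these sets, and its molecules enter the share. The start at chr10:338601-338700 (+ strand) had 445 and 240 molecules in T1, against 0 and 5 in pm (log2 fold change 6.61 ± 0.95, adjusted p = 0.0002, limma). Its main start 500 nt downstream, chr10:339101-339200, had 150 and 72 in T1, against 6 and 24 in pm (2.06 ± 0.71, adjusted p = 0.043). At chr13:64101-64200 (- strand) the upstream start had 421 and 170 molecules in T1 and none in pm, at least 101-fold higher in T1. The main start there, chr13:63601-63700, had 196 and 113 in T1, against 1 and 16 in pm (3.84 ± 0.80). Here the proximal start rose together with the distal one. At chr13 both calls held under every alternative that gave them a value, whereas the call of the chr10 main start was lost without any single T1, pm or T3 replicate.

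The other 3 of these named units, at chr9:109701-109800, chr15:362701-362800 (both + strand) and chr7:453501-453600 (- strand), had 10 to 73 upstream molecules in each T1 library, against at most 4 in each pm library. Their calls were weak: that of chr7:453501-453600 was lost without any single T1, pm or T3 replicate, that of chr15:362701-362800 without pm replicate 2, and that of the main start of the chr9 unit without T1 replicate 1 or either pm replicate. Those of the main starts of the chr7 and chr15 units were lost without T1 replicate 1 or pm replicate 2, and in the chr7 unit without any other T1, pm or T3 replicate as well. Among the 58 units whose main start was not called, its log2 fold change ran from -2.45 to 2.50 and was below 0 in 30. The share of the upstream bin beside the main bin there had a median of 51.1% in T1, against 5.66% in pm. A test that misses the threshold does not show that these main starts stayed the same.

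**Figure D4:**
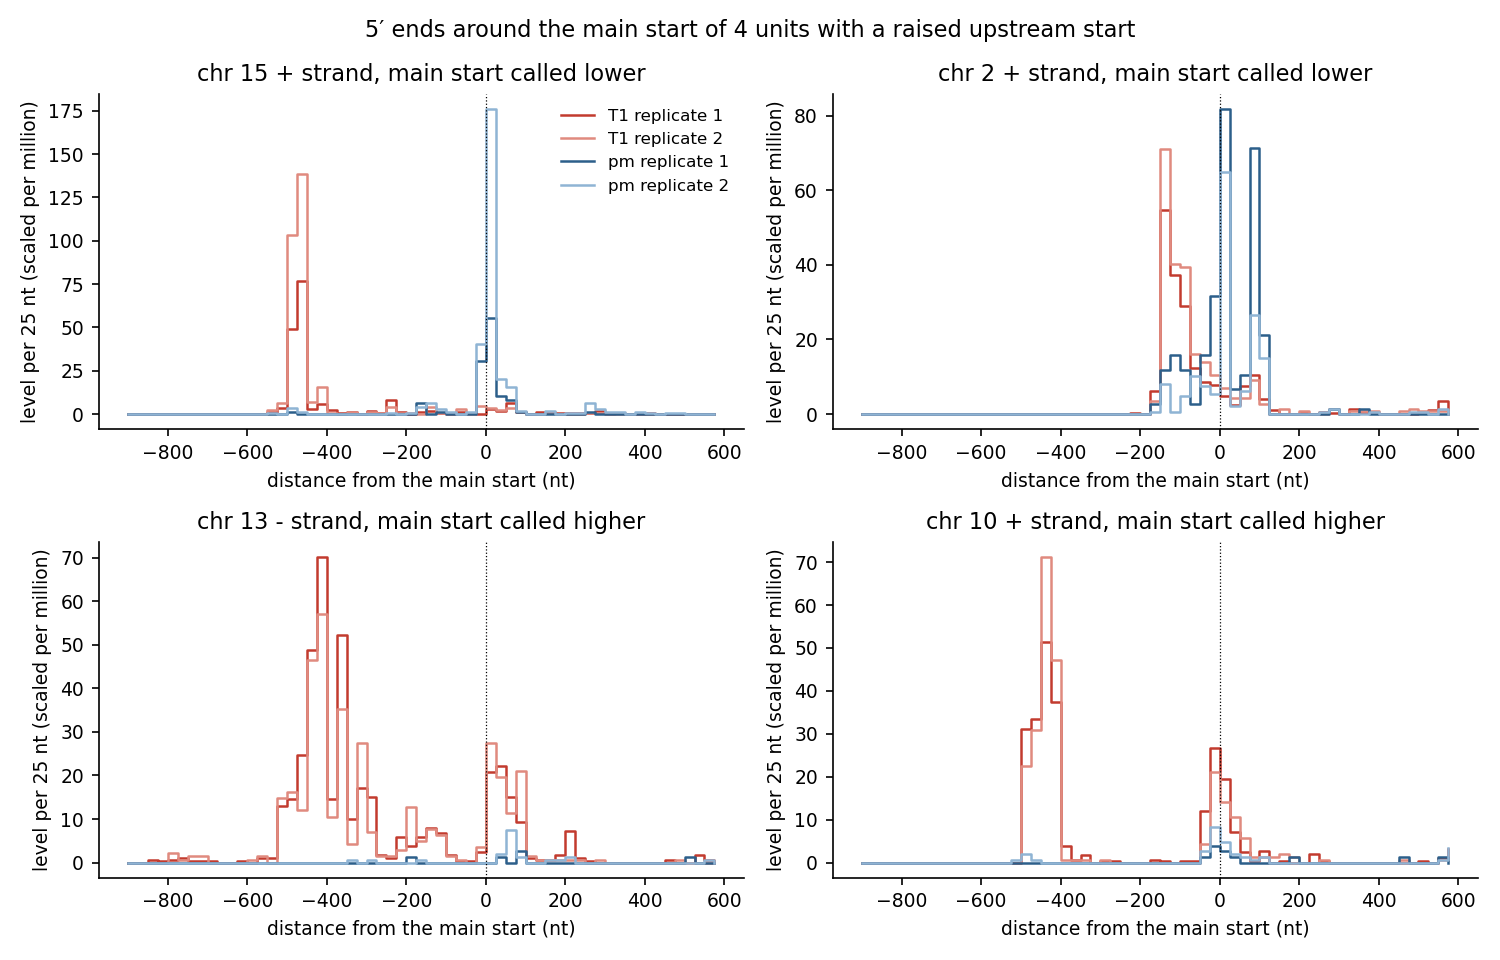
Molecules starting per 25 nt, in CPM, around the main start (distance in nt on the x axis, downstream to the right) in 4 units with a raised upstream start, for T1 libraries and pm libraries. In the chr15 unit the T1 molecules start mostly in and near the bin 500 nt upstream and the pm molecules at the main start, whereas in the chr10 unit T1 molecules start at both.

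Raised downstream starts, which give 5′-shortened molecules, lay in 104 units. The main start was also higher in 63 of these, lower in 1 and not called in 40. The share of such bins in the molecules of the downstream and main bins was small, with a median of 4.76% in T1, against 1.47% in pm, and it was larger where the main start was not called, 24.3% in T1, against 3.22% in pm. The one unit with a lowered main start was that of chr4:195001-195100 (+ strand), with 50 and 14 molecules in T1 and none in pm, at least 10.9-fold higher in T1. Its main start, 400 nt upstream, had 6 and 0 molecules in T1, against 9 and 14 in pm, and its call was lost without T1 replicate 2.

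The starts at chr12:958001-958100 (+ strand), with 176 and 66 molecules in T1, against 0 and 17 in pm, and at chr6:109501-109600 (+ strand), with 143 and 85 in T1, against 1 and 3 in pm, were called higher as well. At chr2:457901-458000 (- strand) there were 72 and 23 in T1, against 0 and 11 in pm. The test of start usage did not pass for these 3, with adjusted p of 0.37, 0.093 and 0.081 in the order given (diffSplice). The call at chr2:457901-458000 was lost without T1 replicate 1, pm replicate 1 or either T3 replicate, and that of chr12:958001-958100 without T1 replicate 1 or pm replicate 1. Completeness of 5′ ends differed between the libraries: of spike-in molecules of pGIBS-LYS, 43.2% and 57.5% started within 5 nt of their most frequent start in T1, against 87.5% and 57.9% in pm. Their 3′ ends differed less, with 90.4% and 90.8% at the main position in T1, against 79.3% and 86.8% in pm. The part of lost 5′ ends in the counts of downstream starts was not tested.

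Changes in the shares of start bins within units were also tested directly. The test took units without a main start too, and bins that adjoin each other. By bin it passed at chr8:121101-121200, which had no pm molecule (adjusted p = 0.00023, diffSplice). It also passed at chr4:491201-491300, which adjoins its main start (0.0085). Not all such calls are therefore an exchange between separate starts. Of 2268 units with more than 1 tested start bin, 110 (4.85%) had a start bin whose share changed in T1 against pm by limma's diffSplice. Without T1 replicate 1 there were 34 such units, without T1 replicate 2 32, without pm replicate 1 71, without pm replicate 2 60, and without either T3 replicate 68 and 70. The number of units called thus depended on the libraries fitted.

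Antisense starts lie within a unit of the opposite strand. Of 442 tested, 59 were called higher (13.3%) and 92 lower (20.8%), beside 12.7% and 13.1% of all start bins. For the 59 higher ones, the main start of the unit on the other strand was higher in 9 (15.3%), lower in 15 (25.4%) and not called in 35. Over all 442 antisense starts it was higher in 37 (8.37%) and lower in 88 (19.9%). At chr6:196801-196900, one of the starts without a pm molecule, the opposite main start had 5484 and 3059 molecules in T1, against 1188 and 3360 in pm (log2 fold change 0.02, adjusted p = 0.96, limma). An antisense start without a pm molecule was thus seen beside a sense start that was not called in either direction.

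At other loci both strands moved. The antisense start at chr13:512901-513000 (+ strand) had 355 and 244 molecules in T1, against 0 and 1 in pm, and the opposite main start 4 and 3 in T1, against 12 and 32 in pm (log2 fold change -3.35, adjusted p = 0.014, limma). The antisense start at chr8:34601-34700 (- strand) had 252 and 149 molecules in T1, against 1 and 2 in pm, with 2 and 0 molecules of the opposite main start in T1, against 19 and 58 in pm. At chr2:290601-290700 (- strand) the antisense start had 56 and 68 in T1, against 0 and 1 in pm, while the opposite main start was higher too, with 2556 and 1021 in T1, against 142 and 683 in pm. No direction of the sense start went with a raised antisense start at all 4 loci.

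Divergent starts leave a shared promoter region on opposite strands 50 to 500 nt apart. Only pairs with both starts in a unit were counted. With the most abundant pair of starts kept for each pair of units, there were 540 pairs. Both starts were higher in 15 pairs and both lower in 18, and 11 pairs moved in opposite directions. In 317 pairs neither was called. Only the plus-strand start was higher in 35 pairs and lower in 50, and only the minus-strand start in 54 and 40. Of all tested start bins 12.7% were higher and 13.1% lower. Whether the starts of a pair moved together more often than these shares give was not tested. The pairs named next did not need a unit on both sides. The starts at chr7:438001-438100 and chr12:863901-864000 belong to no unit, so their pairs are outside the 540. The pair of chr7:438201-438300 (+ strand) with chr7:438001-438100 (- strand) had a gap of 101 nt. The minus-strand start had 57 and 27 molecules in T1 and none in pm, so that neither side of this promoter had a pm molecule. Pairs at chr12:863901-864000, chr16:244401-244500 and chr16:240901-241000 (+ strand) with their minus-strand partners likewise had both starts higher, with gaps of 101 to 201 nt. At the last of them the minus-strand partner, chr16:240701-240800, had a log2 fold change of -1.16 in bins of 200 nt, and the call of the plus-strand start was lost without T1 replicate 1 or pm replicate 2.

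Few starts were called for a change in the shares of their 3′ ends. Of 564 starts joined to more than 1 end bin, 21 (3.72%) had a 3′ end whose share changed by limma's diffSplice, with a median change of 10.8 percentage points and a largest of 85.1. Another 3′ end took over at chr6:11401-11500 (- strand), where the distal end held 89.3% and 100% of the molecules in T1, against 10% and 9.09% in pm. It was reached by 25 and 21 molecules in T1, against 1 and 2 in pm (adjusted p = 0.036). At chr16:549401-549500 (+ strand) the distal end held 89.9% and 94.6% in T1, against 58.5% and 29.5% in pm. At chr13:487901-488000 (+ strand) it held 33.3% and 51.0%, against 2.92% and 2.07%. At chr15:648901-649000 (- strand) the end that gained held 44.2% and 45.2%, against 5.41% and 2.86%. At some other called starts the end that lost share lay close to the start. It lay 100 nt away at chr5:379801-379900 (- strand), with 0.674% and 0.433% in T1, against 28.2% and 18.2% in pm. It did so too at chr8:267701-267800 (+ strand), with 0% in both T1 libraries, against 37.3% and 7.14% in pm. The part of very short molecules, more common in pm, in these calls was not tested. Without T1 replicate 1 or T1 replicate 2 none of the 3′ ends was called by limma (106 and 61 starts at an unadjusted p under 0.05). Without pm replicate 1, pm replicate 2 or either T3 replicate 1 or 2 starts were called, and without T2 replicate 1 or 2 there were 86 and 85. All 4 named ends lost their call without T1 replicate 2, with adjusted p of 0.313 to 0.441, and also without T1 replicate 1, pm replicate 1 or either T3 replicate.

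Both T1 libraries had longer molecules by median than both pm libraries. The median length of all molecules was 900 and 916 nt in T1 (908 ± 11.3, SD, n = 2), against 875 and 827 nt in pm (851 ± 33.9). The smallest p of an exact two-sided permutation test of 2 against 2 libraries is 0.333, so this test could not pass a threshold of 0.05, and no other was run on these medians. With molecules under 200 nt left out, the means were 910 nt in T1 and 861 nt in pm. Molecules of higher start bins had medians of 955 and 971 nt in T1, against 968 and 921 nt in pm, those of lower ones 837 and 810 nt in T1, against 860 and 829 nt in pm, and those of bins not called 906 and 912 nt, against 895 and 851 nt. The RNAs lowered in T1 were thus shorter than the RNAs raised, in every library.

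Length within units rarely changed. Units with at least 20 molecules in each of the 8 libraries, T2 and T3 included, were tested. Of these 1013, limma called the median length longer in 12 (1.18%) and shorter in 3 (0.296%), by at least 50 nt. Without pm replicate 1, 7 units were called shorter and 23 in all, and without T1 replicate 2 or pm replicate 2 5 were shorter. The median difference over all 1013 was 1 nt. Both T1 libraries were longer than both pm libraries in 320 units and shorter in 176. The longest gain was that of the unit at chr13:378701-378900 (+ strand), with medians of 1243 and 1254 nt in T1, against 58 nt in both pm libraries. This is the unit of the upstream start at chr13:377601-377700. The unit at chr9:64301-64900 (- strand) had 1069 and 1232 nt in T1, against 125 and 133 nt in pm.

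At these 2 units the pm molecules were under 200 nt by median, a class more common in pm, as given above. The same held at chr14:651201-651500 (+ strand), with 393.5 and 440 nt in T1, against 109 and 142.5 nt in pm. The unit at chr10:268701-269500 (- strand) had 642 and 716 nt in T1, against 312 and 390 nt in pm (adjusted p = 0.028, limma), a call that was lost without any single T1, pm or T3 replicate. The other 9 lengthened units, with that at chr14 among them, gained between 54.5 and 291 nt. The 3 shortened units had 1036 and 1090 nt in T1, against 1306 and 1305 nt in pm, at chr12:50301-50700 (- strand), 1315 nt in both T1 libraries, against 1495 and 1494 nt, at chr12:876001-876100 (- strand), and 641 and 640.5 nt, against 747 and 748 nt, at chr10:367101-367400 (+ strand). With mean in place of median length, none of the 6 units named kept its call, and the unit at chr12:876001-876100 was 21.6 nt longer in T1.

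**Figure D5:**
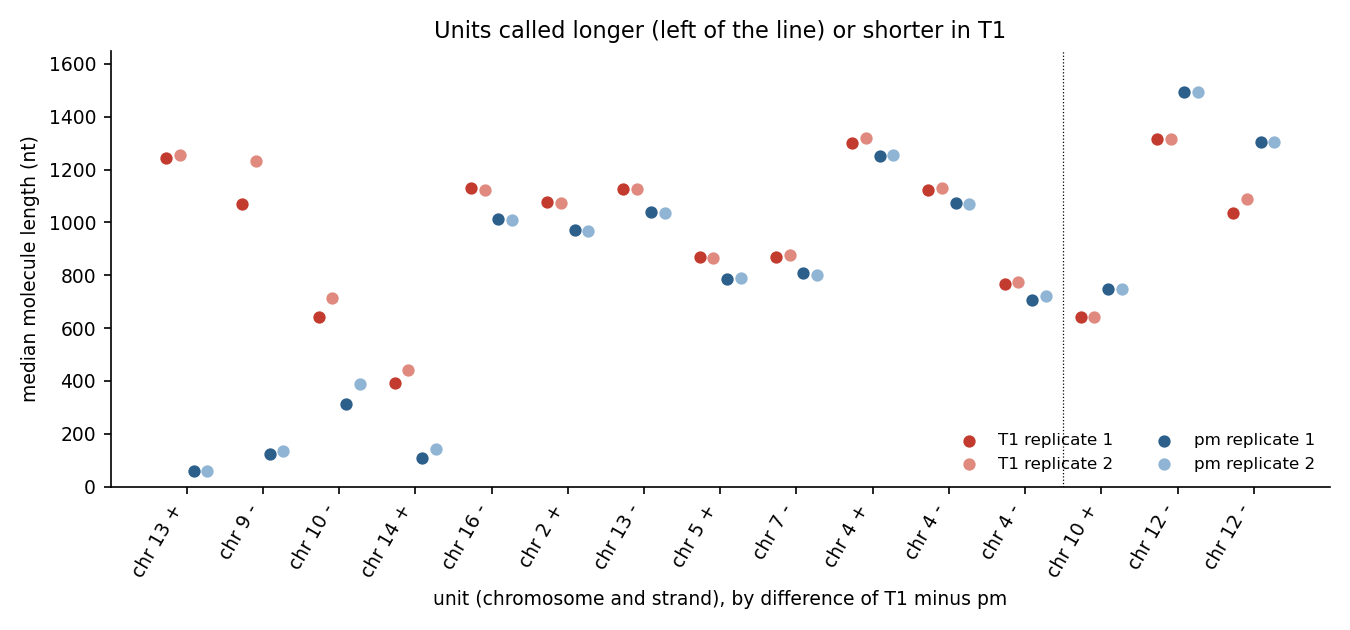
Median molecule length in nt of the 15 units called longer or shorter, in each T1 library and each pm library. The largest gains, at chr13 and chr9, stand against pm medians of 58 to 133 nt, and the 3 shortened units differ by about 107 to 243 nt.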

How the data were processed

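TIF-seq libraries of the T1 and pm pools were compared, with 2 replicates each. The authors built them with the TIF-Seq2 protocol (decapping, a 5′ adaptor with an 8-mer molecular identifier, oligo(dT) priming and circularization), sequenced them on a NextSeq 500, mapped the reads to the SK1 assembly and kept uniquely mapped pairs on one chromosome. The submitters' processing notes name cutadapt 1.16, STAR 2.5.3a and bedtools. The deposited files hold read positions, strands and a mapping quality score per pair, with no normalization and no count per feature. The deposited lines held no exact copies with the same 5′ end, 3′ end and identifier, and they were not collapsed further by identifier here.

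Counts per bin were made here from the positions and were compared with limma 3.58.1 (voom) in R 4.3.3, in 1 fit of all 8 libraries with the pool as the only term. P-values are two-sided and adjusted over all tested bins by the Benjamini-Hochberg method. Shares of starts and 3′ ends were tested with diffSplice, and unit lengths with limma trend. Groups are those of the labels, and biological replication is as the authors state it. Loci with the largest fold changes and level differences at set minimum levels were named. Apart from main starts and the most abundant starts, a bin named for its level had to be called. Both T1 libraries also had to lie beyond both pm libraries in it. Members, lists and the naming rule were chosen with earlier results of these data known. Intervals of ratios are exact 95% intervals for counting error alone, as are bounds from a floor of 3 molecules over a pool. Alternatives comprised the scaling, filter, bin width, test, libraries fitted, replicate block and each library left out. The steps were tested on simulated data. Python 3.11.15, numpy 2.4.6 and pandas 2.3.3 were used.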

Additional observations from a re-analysis of the deposited data

Results flagged for a closer look

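Molecules of spike-in transcripts, which belong to no comparison of the pools, were found in every library. They numbered 4396 and 2217 in the T1 libraries, or 0.241% and 0.230% of all molecules, against 1040 and 1659 in the pm libraries, or 0.171% and 0.126%. The sources used here describe spike-ins for other libraries of the study only, so their amount per library is unknown.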

How the results depend on the processing

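The counts changed with the filter, the test, the bin width, the choice of main start and single libraries. With a filter of 1 CPM in place of 5, 5013 start bins were called (2050 higher, 2963 lower), 3803 end bins (2571 lower), 242 units for start usage and 134 units with a raised upstream start (main start lower in 26, not called in 94). At 20 CPM there were 1375 start bins (643 higher, 732 lower), 1447 end bins (674 higher, 773 lower), 47 units for start usage, 3 starts for 3′ end usage and 24 upstream units (main start higher in 2, lower in 6, not called in 16). With limma trend there were 1738 start bins (813 lower), 796 lower end bins, 60 units for start usage and 4 upstream units with a higher main start. Bins of 200 nt gave 140 upstream units (main start higher in 34, not called in 94). The main start was higher in 37 and lower in 5 when picked by the mean of pm and T1 (chosen after seeing the data), higher in 17 with scaling by totals, in 3 with spike-in scaling and in 16 with only the 4 T1 and pm libraries, a fit that called 33 starts for 3′ end usage. At 50 molecules per library limma called 7 units longer and 0 shorter (0 at an unadjusted p under 0.05). By mean length it called 4 longer and 0 shorter (6 unadjusted). The causes were not tested.

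Leaving out 1 library at a time gave 1356 to 3418 start bins (635 to 1708 higher, 674 to 1733 lower), 914 to 3181 end bins (357 to 1395 higher, 491 to 1806 lower), 32 to 149 units for start usage, 0 to 86 starts for 3′ end usage, 13 to 23 units for length (8 to 16 longer, 3 to 7 shorter) and 41 to 97 upstream units (main start higher in 2 to 16, lower in 4 to 15, not called in 35 to 69). Replicates of T1 and pm share only a number, with a correlation of their deviations of -0.267. With a replicate block there were 1140 higher and 1149 lower start bins, 836 higher and 1002 lower end bins, 78 units for start usage, 2 starts for 3′ end usage and 73 upstream units, with the main start higher in 6. Of 1592 values of 77 named starts and ends under the alternatives, 1499 kept direction and call, 84 lost the call, 3 gained one and 6 turned round. Those were log2 fold changes of chr12:859501-859600 (-0.055 with spike-in scaling, and -0.039 to 0.46 over the libraries left out, the lowest without pm replicate 1), chr16:240701-240800 (-1.16 in bins of 200 nt) and, with 1 library left out, chr12:957701-957800 (-3.12 to 1.17), chr6:109301-109400 (-1.72 to 0.31) and chr8:34301-34400 (-0.66 to 1.21), in these 3 without pm replicate 2. By mean length 5 of the 6 named units lost their call, and that at chr12:876001-876100 was 21.6 nt longer.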
